A study of Mus musculus with 2 samples.

Results

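The clustered protocadherin genes encode cell adhesion proteins of neurons and lie next to each other in 3 clusters on mouse chromosome 18, named alpha (Pcdha), beta (Pcdhb) and gamma (Pcdhg). The members were taken from the GENCODE M21 annotation of the mm10 build as every protein-coding gene record whose name starts with Pcdha, Pcdhb or Pcdhg. This rule found 57 of 21938 protein-coding records, namely 14 Pcdha, 22 Pcdhb and 21 Pcdhg, and used no measured value. A pair of records share the name Pcdha11, with one starting at 37005203 and the other at 37010712, and they were kept apart. All 57 lie on the plus strand between chr18:36930184 and chr18:37841873, a stretch of 911.7 kb.

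Open chromatin was mapped with DNase-seq. The nuclease DNase I cuts DNA that is not wrapped in nucleosomes and the cut ends are sequenced. The tissue was left cerebral cortex of adult female mice of the B6CASTF1/J strain, a first-generation hybrid with a CAST parent, aged 18 to 20 months and supplied by The Jackson Laboratory. There was 1 group of 2 libraries, called library 1 and library 2 after their biological replicate numbers. They came from separate tissue samples under the same donor identifier, and the labels do not say that these were separate animals, so the SDs given here (n = 2) may be partly technical. With no second group there is no contrast to test, and members are described beside the same quantity over all protein-coding genes.

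In each cluster a row of variable exons, each with its own promoter, is lined up along the chromosome. In the alpha and gamma clusters a chosen variable exon is spliced to common constant exons that encode the inner end of the protein, whereas each Pcdhb gene is a unit of its own. Single neurons are known to use only a few of the alternate promoters, in a largely random choice, which gives each cell a surface code for telling its own branches from those of others. The last variable exons of the alpha and gamma clusters, the C-type genes Pcdhac1, Pcdhac2, Pcdhgc3, Pcdhgc4 and Pcdhgc5, are used more regularly. Choice of an alternate promoter is known to depend on distant enhancers and on CTCF and cohesin, which form loops between them.

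A gene was counted as having a promoter peak where a peak of the authors' longer list touched the 500 bases on either side of its start, and is then called open. Its promoter signal was the authors' value for the strongest such peak, or 0. Of the 57 members, 17 (29.8%) had a promoter peak in both libraries, where 58% of all protein-coding genes did. In library 1 it was 18 members (31.6%, against 59% of all genes), and in library 2 it was 30 (52.6%, against 60.9%). No promoter peak was found in either library for 26 members. The median promoter signal over the members was 0 in library 1 and 0.302 in library 2, and over all protein-coding genes it was 0.864 and 1.05. In bulk tissue, a promoter open in few cells and one weakly open in many cells cannot be told apart.

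The 5 C-type genes all had a promoter peak in both libraries, where 58% of all genes did. Their median signals were 2.32 and 2.6 (library 1 first, here and below). Pcdhgc3, known to promote dendrite branching of cortical neurons, had a signal of 4.03 in library 1 and 4.12 in library 2 (4.07 ± 0.0637, SD, n = 2), the highest of all members. Among all genes with a promoter peak this placed it at percentile 62.6 in library 1 and 60.6 in library 2. Counted in bases from the start, with negative values before it, its peak ran from -163 to 96 in library 1 and from -163 to 116 in library 2. Pcdhgc5 followed with 2.93 and 2.6 (2.76 ± 0.229, SD, n = 2), in a peak that ended at base -53 in both libraries. Pcdhac1 had 2.32 and 3.04 (2.68 ± 0.509, SD, n = 2). The means of Pcdhgc5 and Pcdhac1 differed by less than the SD of Pcdhac1, so their order is not resolved.

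Pcdhac2, the last variable exon of the alpha cluster, had a signal of 1.45 and 1.73 (1.59 ± 0.2, SD, n = 2). Its peak was the widest of the members, 560 bases in library 1 and 920 in library 2. It ran from -82 to 477 in library 1 and from 158 to 1077 in library 2, where it did not cover the start. Both are parts of 1 merged region of 1383 bases, which was listed as 3 peaks in library 1 and 2 in library 2. Pcdhgc4, known to be needed for the survival of cortical interneurons, had 1.52 and 1.33 (1.42 ± 0.131, SD, n = 2). Its strongest peak lay inside the first exon, 182 to 381 bases after the start in library 1, and a weaker one over the start itself, with a signal of 0.777, was listed in library 2 only. Pcdhac2 and Pcdhgc4 also stood closer together than the SD of Pcdhac2. The lowest C-type signal, 1.45 in library 1 and 1.33 in library 2, was above every alternate member but Pcdhga12 in both libraries.

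**Figure D1:**
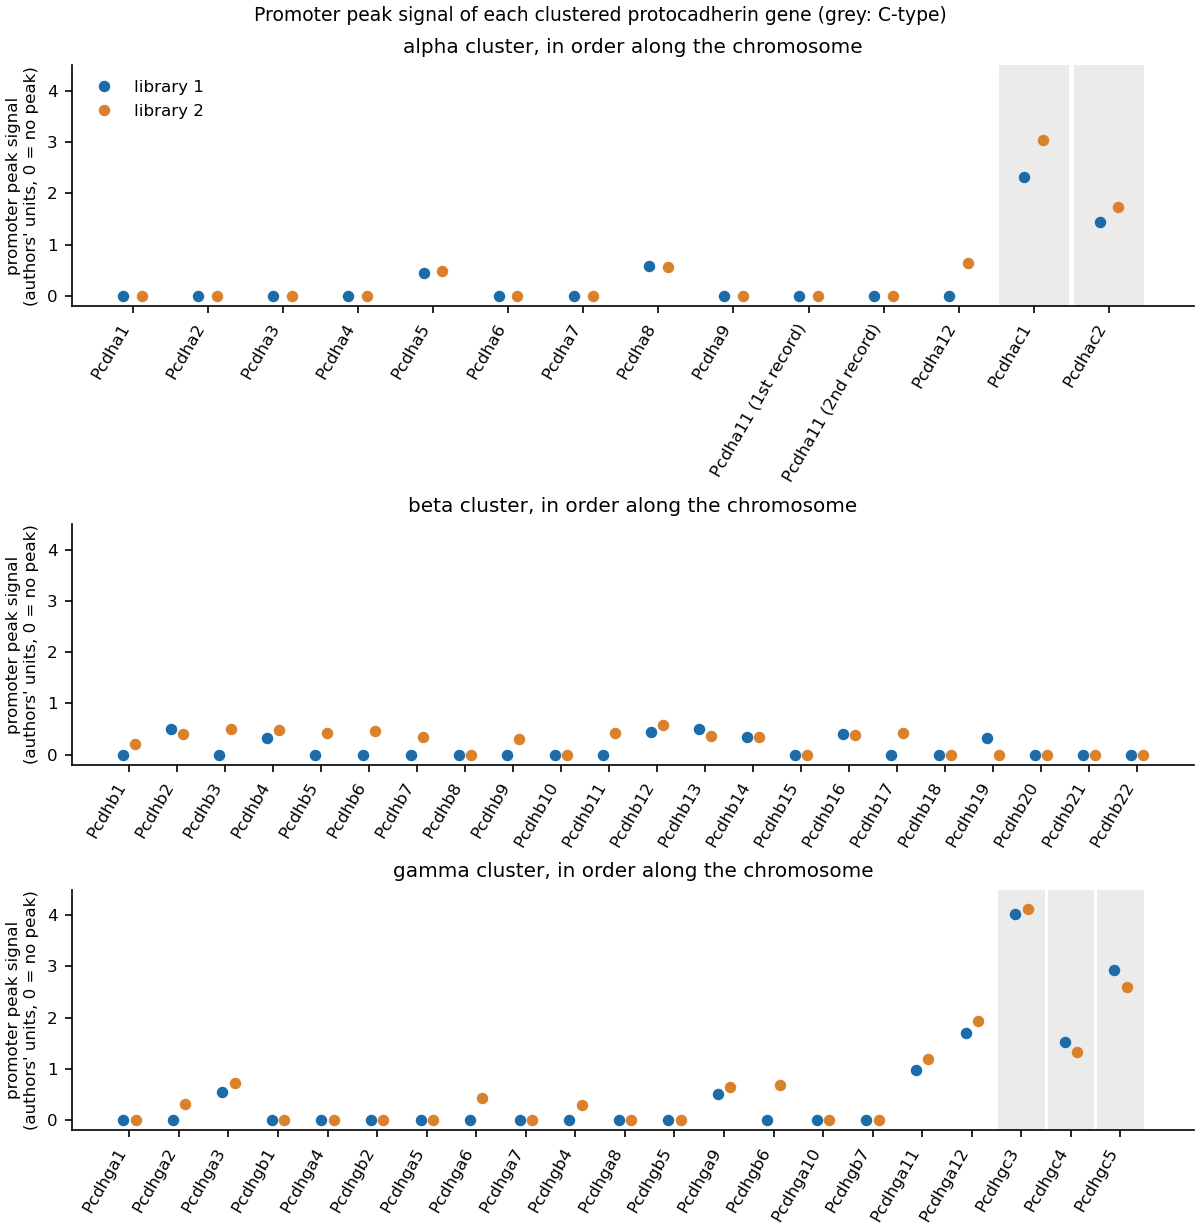
Promoter peak signal in the authors' units (y axis) of each clustered protocadherin gene in order along the chromosome (x axis), 1 panel per cluster, with 1 point for each library and the C-type genes shaded grey; points at 0 mean no promoter peak. The C-type genes reach 1.33 to 4.12, the alternate Pcdha and Pcdhb genes stay at or below 0.635, and Pcdhga11 and Pcdhga12 stand above the other alternate Pcdhg genes.

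Of the 12 alternate Pcdha records, 2 had a promoter peak in both libraries (16.7%). Pcdha8 had a signal of 0.592 in library 1 and 0.561 in library 2 (0.577 ± 0.0219, SD, n = 2), and Pcdha5 had 0.442 and 0.493 (0.468 ± 0.036, SD, n = 2). Pcdha12 had a peak in library 2 only, with a signal of 0.635, within 500 bases of a start of Gm10545. The other alternate records, which are Pcdha1, Pcdha2, Pcdha3, Pcdha4, Pcdha6, Pcdha7, Pcdha9 and both Pcdha11 records, had none in either library. The peaks that recurred did not lie over the start. In Pcdha5 the peak ran from 351 to 493 bases after the start in library 1 and from 389 to 516 in library 2. In Pcdha8 it ran from 490 to 597 and from 490 to 604, and in Pcdha12 of library 2 from 492 to 578. All 3 are thus inside the variable exon, near the edge of the window. Only Pcdha8 in library 1 also had a peak before the start, from -147 to -29. A window of 250 bases on either side left no alternate Pcdha record with a peak in both libraries, since the 2 Pcdha genes that it kept were the C-type ones.

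The Pcdhb cluster had low signals at many promoters. A promoter peak was found in both libraries for 6 of its 22 genes (27.3%, against 58% of all genes). In library 1 it was 7 (31.8%, against 59%). In library 2 it was 14 (63.6%, against 60.9%), so there the share was near that of all genes. Where there was a peak, its signal had a median of 0.402 and 0.416, and over all genes with a promoter peak the median was 3.06 and 3.3. Pcdhb12 had 0.436 and 0.58 (0.508 ± 0.102, SD, n = 2), Pcdhb2 had 0.51 and 0.413 (0.462 ± 0.0688, SD, n = 2), and Pcdhb13 had 0.497 and 0.364 (0.43 ± 0.094, SD, n = 2). Pcdhb4 followed with 0.32 and 0.481, Pcdhb16 with 0.402 and 0.382, and Pcdhb14 with 0.34 and 0.351. Pcdhb12 and Pcdhb2 were above Pcdhb16, and Pcdhb16 above Pcdhb14, in both libraries, while the places of Pcdhb4 and Pcdhb13 changed between them. None of the 22 reached the shorter, stricter peak list in both libraries.

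The other Pcdhb genes split by library. Pcdhb19 had a peak in library 1 only, with a signal of 0.327. Pcdhb3 (0.506), Pcdhb6 (0.469), Pcdhb5 (0.432), Pcdhb17 (0.432), Pcdhb11 (0.419), Pcdhb7 (0.339), Pcdhb9 (0.314) and Pcdhb1 (0.203) had one in library 2 only. Pcdhb1, the first gene of the cluster, had the lowest signal of any member with a peak, and that peak began 174 bases after its start. No peak was found for Pcdhb8, Pcdhb10, Pcdhb15, Pcdhb18, Pcdhb20, Pcdhb21 or Pcdhb22. Along the chromosome, 9 of the 11 genes from Pcdhb1 to Pcdhb11 and 5 of the 11 from Pcdhb12 to Pcdhb22 had a peak in library 2. In library 1 the counts were 2 and 5, so the order of the stretches turned between the libraries. The share over all genes was 59% in library 1 and 60.9% in library 2. The starts of Pcdhb19 to Pcdhb22 all fell in a stretch of 56.2 kb with no peak of either library after the Pcdhb19 peak.

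Where Pcdhb promoters had a peak, it was narrow and close to the start. The middle of the strongest peak lay between 150 bases before and 50 after the start in 7 of 7 genes of library 1 and 11 of 14 of library 2. Over all protein-coding genes with a promoter peak the shares were 63.5% and 61.3%. The median peak was 126 bases wide in library 1 and 152.5 in library 2, where it was 240 bases over all genes in both libraries and 260 over the C-type genes. In alternate Pcdha genes the median width was 131 and 115 bases, and in alternate Pcdhg genes 135.5 and 180. Narrow peaks were thus not particular to Pcdhb. Weak peaks can be narrow wherever they lie, and the part of signal in the difference from all genes was not tested.

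**Figure D2:**
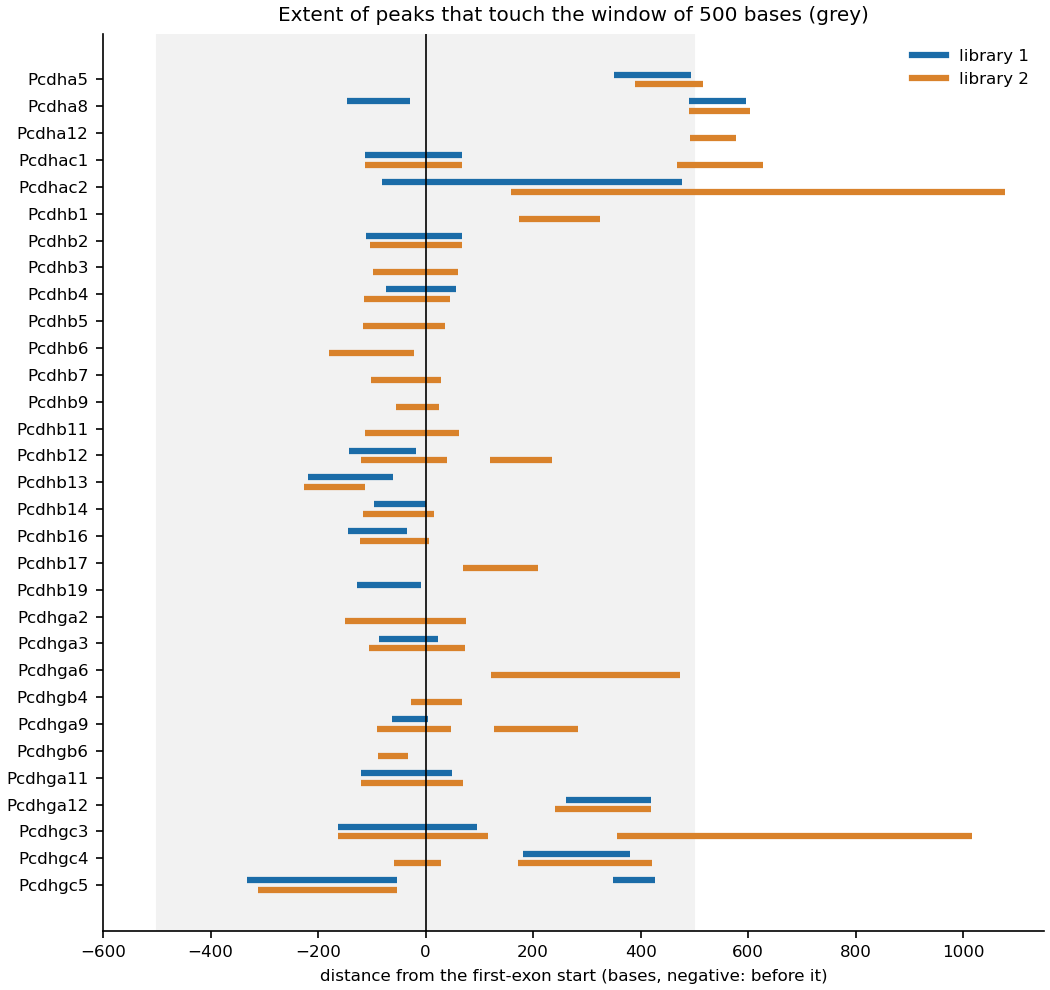
Extent of every peak that touched a member's promoter window (x axis, bases from the start of the gene record, negative before it), with 1 row per gene and 1 bar per library; the grey band is the window of 500 bases. Pcdhb peaks gather just before and over the start, whereas Pcdha5, Pcdha8 and Pcdha12 have peaks 351 bases or more inside the exon.

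A promoter peak in both libraries was found for 4 of the 18 alternate Pcdhg genes (22.2%, against 58% of all genes). All 4 were of the Pcdhga kind. Pcdhga12, the last alternate gene before the C-type genes, had a signal of 1.71 in library 1 and 1.93 in library 2 (1.82 ± 0.157, SD, n = 2). Its peak lay inside the exon, from 261 to 420 bases after the start in library 1. Pcdhga11 had 0.98 and 1.2 (1.09 ± 0.153, SD, n = 2), in a peak over the start that also lies within 500 bases of an annotated start of the non-coding gene Gm26672. Both were above all other alternate members in both libraries. Pcdhga3 had 0.551 and 0.734 (0.643 ± 0.129, SD, n = 2), and Pcdhga9 had 0.51 and 0.641 (0.576 ± 0.0925, SD, n = 2). In Pcdhga9 the strongest peak lay over the start in library 1 and from 128 to 284 bases after it in library 2. Its SD is therefore not that of a single peak. The peak over its start had 0.51 and 0.586 (0.548 ± 0.0533, SD, n = 2). Pcdhga3 was the higher in both libraries, though the means differed by less than the SD of Pcdhga3.

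Among the 6 Pcdhgb genes none had a peak in both libraries. Pcdhgb6, with a signal of 0.678, and Pcdhgb4, with 0.302, had one in library 2 only, as did Pcdhga6 with 0.438 and Pcdhga2 with 0.314. No peak was found for Pcdhga1, Pcdhga4, Pcdhga5, Pcdhga7, Pcdhga8, Pcdhga10, Pcdhgb1, Pcdhgb2, Pcdhgb5 or Pcdhgb7. In chromosome order, 1 of the first 9 alternate genes, from Pcdhga1 to Pcdhga7, and 3 of the last 9, from Pcdhgb4 to Pcdhga12, had a peak in both libraries. The share over all genes was 58%. Pcdhgb8, which the annotation calls a polymorphic pseudogene and the rule therefore leaves out, lies between Pcdhga11 and Pcdhga12. It had a peak from -220 to -41 in library 1, with a signal of 1.01 and, in library 2, 1.17 (1.09 ± 0.112, SD, n = 2), next to the values of Pcdhga11.

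The members differed between the libraries mainly by presence. Of the 57 members 13 (22.8%) had a promoter peak in library 2 only, where 2.91% of all protein-coding genes did, and 1 (1.75%) in library 1 only, against 1.01%. The 13 signals ran from 0.203 to 0.678 with a median of 0.432, and over the 639 genes open in library 2 only the median was 0.419. Library 2 had more peaks in all, 139799 against 132054 in library 1. Of the 27 peaks of library 2 at alternate members 12 (44.4%) overlapped a peak of library 1. Among all library 2 peaks with a signal of 0.357 to 0.583, the middle 50% of these member peaks, 59.9% did. Of the 14 library 1 peaks at alternate members 12 (85.7%) overlapped one of library 2, against 70.7% of all library 1 peaks from 0.411 to 0.582. The member peaks themselves ran more widely, from 0.32 to 1.71 in library 1 and from 0.203 to 1.93 in library 2. The compared sets are thus not matched in signal. The part of sequencing depth in the differences between the libraries was not tested, since no read totals were used here.

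Over the 17 members with a peak in both libraries, the log2 ratio of library 2 to library 1 had a median of 0.16 and ran from -0.45 to 0.59, and 11 of 17 (64.7%) were higher in library 2. Over the 12725 genes open in both, the median was 0.12 and 68.5% were higher in library 2. The order of these 17 was close in both libraries (Spearman's rho 0.90, n = 17 genes, as a description, since genes of one library share its depth).

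Non-clustered protocadherins, which are single genes with promoters of their own, gave a different picture. Of 12 such genes 11 were open in both libraries (91.7%, against 58% of all genes). Pcdh12, known from the vessel wall, had a peak in library 2 only with a signal of 0.691. Pcdh9 had the strongest, with 8.22 and 7.99 (8.1 ± 0.167, SD, n = 2), followed by Pcdh10 with 7.66 and 7.26 (7.46 ± 0.282, SD, n = 2) and Pcdh17 with 5.93 and 5.65 (5.79 ± 0.198, SD, n = 2). The median of the 12 was 1.47 and 1.65, below the C-type median in both libraries. In other large gene clusters most genes had no promoter peak. Only 17 of 1135 olfactory receptor genes (1.5%) and 3 of 39 Hox genes (7.69%) had one in both libraries. The 52 alternate protocadherins, with 12 (23.1%), lay between these lists and all genes.

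Of 12 genes for the machinery known to act on the clusters, 11 were open at the promoter in both libraries. Ctcf, the zinc finger protein that binds alternate promoters and enhancers, had 3.53 and 3.85 (3.69 ± 0.232, SD, n = 2). The cohesin genes Smc3 (8.07 and 7.99), Rad21 (6.21 and 5.99), Smc1a (3.62 and 3.29) and Stag2 (2.23 and 2.43), the cohesin loader Nipbl (3.65 and 3.85) and the cohesin releaser Wapl (7.26 and 7.45) had peaks in both libraries. So did Smchd1, a silencer of the clusters, with 4.16 and 4.17, and Setdb1, a histone methyltransferase that protects them from excess CTCF binding, with 4.09 and 5.08. Dnmt3b, the DNA methyltransferase known to methylate alternate promoters in early development, was the lowest with a peak, at 0.681 and 0.876. The cohesin gene Stag1 had none at the start of its gene record. Of 11 signalling partners of protocadherins, such as the kinases Ptk2 (2.86 and 3.37) and Ptk2b (1.16 and 0.869) and the actin regulator Wasf1 (7.98 and 7.14), 10 had a promoter peak in both libraries, and Fyn had none. Each list had a share above the 58% of all genes.

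**Figure D3:**
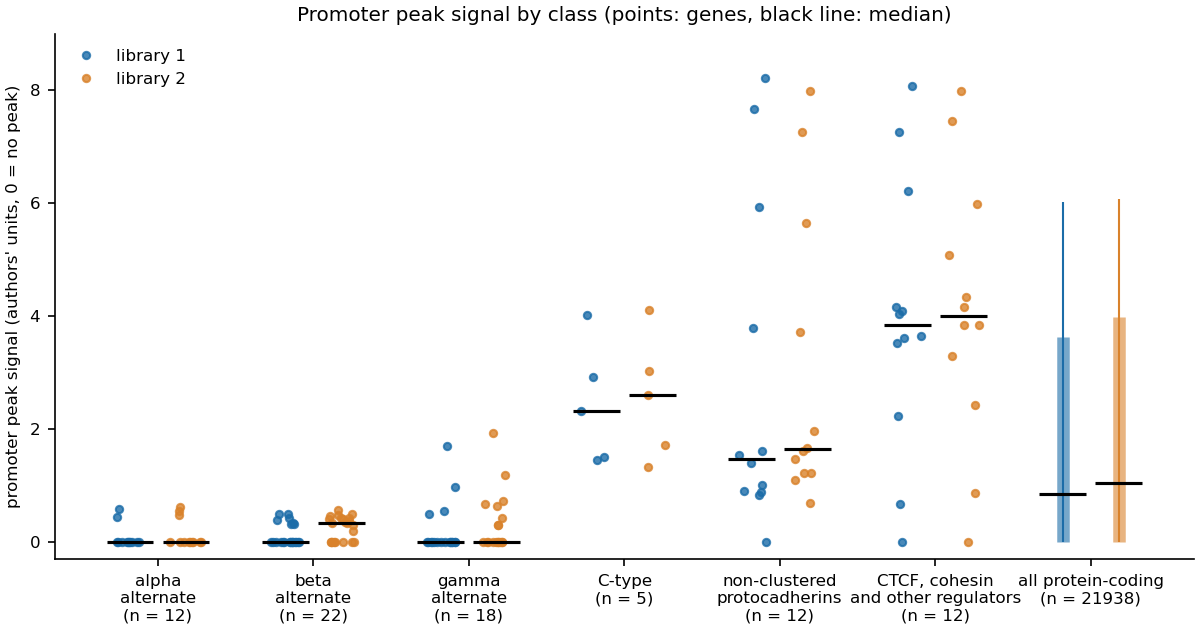
Promoter peak signal in the authors' units (y axis) by class (x axis), with 1 point per gene and library and a black line at the median; for all protein-coding genes the thin bar spans the 10th to 90th percentile and the thick bar the middle 50%. The C-type median, 2.32 and 2.6, lies above the medians of the alternate classes, which are 0 except for Pcdhb in library 2 with 0.345.

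The tissue label was checked on promoters of cell type markers. Of 6 markers of excitatory neurons 5 were open in both libraries, among them Camk2a with 3.92 and 4.06. Inhibitory neurons had 2 of 3 markers open, astrocytes 2 of 4, oligodendrocytes 1 of 2 and endothelial cells 1 of 3. Over all protein-coding genes 58% were open in both libraries, and counts of so few markers do not show which cell types were present. The markers Gad1, Aqp4, Mog and Pecam1 and all 3 of microglia (Cx3cr1, Csf1r and Aif1) were at 0 in both libraries. None of the 6 liver and muscle markers had a peak.

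Outside the promoters, the strongest elements from Pcdha1 to 50 kb after the last Pcdhg exon lay in the places where enhancers of the clusters are known. Farther downstream, 173.2 and 183.3 kb after that exon, stood chr18:38014941-38015180 (3.26 and 3.14) and chr18:38025001-38025360 (2.86 and 3.44). Neither lay within 500 bases of an annotated start, and both had higher means than the strongest region of the Pcdha constant region. Between the first base of Pcdha1 and 50 kb after the last Pcdhg exon the libraries' merged peaks gave 73 regions, 38 of them in promoter windows of members and 40 found in both libraries. Within the Pcdha constant region, in the long intron between the second and the last constant exon, chr18:37172281-37172500 had a signal of 2.77 in library 1 and 2.36 in library 2 (2.57 ± 0.289, SD, n = 2). An enhancer of the alpha cluster is known in this intron. The start of the gene record Gm38097 also lies within 500 bases of this peak. A smaller one, chr18:37178401-37178520 at the start of Gm10544, had 0.898 and 1.17, and chr18:37176753-37176980 had 0.415 and 0.407. The 2 others of this stretch, with 0.382 and 0.586, were in library 2 only.

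Between the last Pcdha exon and Pcdhb1 a group of 4 regions shared by both libraries lay 29.1 to 30.7 kb after the Pcdha cluster, in the stretch where the best known alpha enhancer lies. The strongest, chr18:37218241-37218460, had 6.15 and 5.61 (5.88 ± 0.383, SD, n = 2), which placed it at percentile 98.4 and 97.9 of all peaks of its library. It held 7 footprints in library 1 and 4 in library 2. Beside it stood chr18:37217361-37217560 with 2.61 and 2.64 (2.62 ± 0.0231, SD, n = 2), chr18:37217841-37218140 with 1.52 and 1.47 (1.5 ± 0.0402, SD, n = 2) and chr18:37216674-37216900 with 0.402 and 0.321. A match to the CTCF core overlapped a footprint of both libraries in chr18:37217361-37217560. Its signal of 2.62 was below that of 5.88 by more than the SD of either. A further peak at chr18:37189115-37189272 was in library 2 only (0.604).

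Within 50 kb after the last Pcdhg exon, largely inside the body of Diaph1, 8 of 9 regions were found in both libraries. Enhancers that act on the beta and gamma clusters are known downstream of the gamma cluster. The strongest was chr18:37852161-37852400, 10.4 kb after the cluster, with 7.11 and 6.41 (6.76 ± 0.494, SD, n = 2). Next was chr18:37883561-37883760 with 5.41 and 4.92 (5.17 ± 0.346, SD, n = 2). In both of these a CTCF core match overlapped a footprint in both libraries. Other regions shared by both libraries were chr18:37880161-37880460 (3.64 and 3.75), chr18:37877221-37877600 (2.89 and 3.05), chr18:37842661-37843000 (2.55 and 2.63), chr18:37842041-37842260 (1.66 and 1.9), chr18:37844441-37844660 (0.885 and 1.36) and chr18:37887072-37887246 (0.49 and 0.573). The last of these also held a CTCF core match in a footprint of both libraries. The region at chr18:37877781-37877878 (0.47) was in library 1 only. This stretch had 18 peaks per 100 kb in library 1 and 16 in library 2, against 4.85 and 5.13 over the chromosomes used. The densities were 9.52 and 15.9 in the Pcdha constant region, 7.35 and 14.1 in the Pcdhg variable region, 12.7 and 12 in the next 150 kb downstream and 2.7 and 5.78 in the Pcdhb cluster.

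Between the last Pcdhb and the first Pcdhg gene the promoter of Taf7, a subunit gene of the general transcription factor TFIID, had 5.61 and 5.85 (5.73 ± 0.168, SD, n = 2). The other region shared there lay at the start of 3222401L13Rik with 0.51 and 0.432. In the span with 200 kb on each side, the longest stretch without a peak of either library was 158 kb, from chr18:36803161 to chr18:36960790, and held the starts of Pcdha1 to Pcdha5. The next, 90.8 kb, lay between the beta and gamma clusters, and one of 69.2 kb ran from the Pcdha12 peak to that of Pcdhac1. Of the 10 strongest regions of this span outside member windows, 7 were at starts of other genes, namely Zmat2 (mean 6.97), Tmco6 (6.75), Diaph1 (6.2), Taf7 (5.73), Vaultrc5 (5.28), Ik with Ndufa2 (5.28) and Hdac3 with Rell2 (4.88). The remaining 3 were the elements with means of 6.76, 5.88 and 5.17 given above. Each of the 10 had a higher mean than any member promoter, the highest of which was Pcdhgc3 with 4.07. Of the 18 neighbouring protein-coding records 12 had a promoter peak in both libraries (66.7%). The 6 without were Dnd1, Slc25a2, Arap3, Gm42416, Gm37013 and Gm37388, the last 3 being records that span protocadherin exons. Arap3 had none at the start of its gene record. Within 500 bases of another annotated start of Arap3, however, chr18:37984381-37984560 had 1.93 and 2.23.

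**Figure D4:**
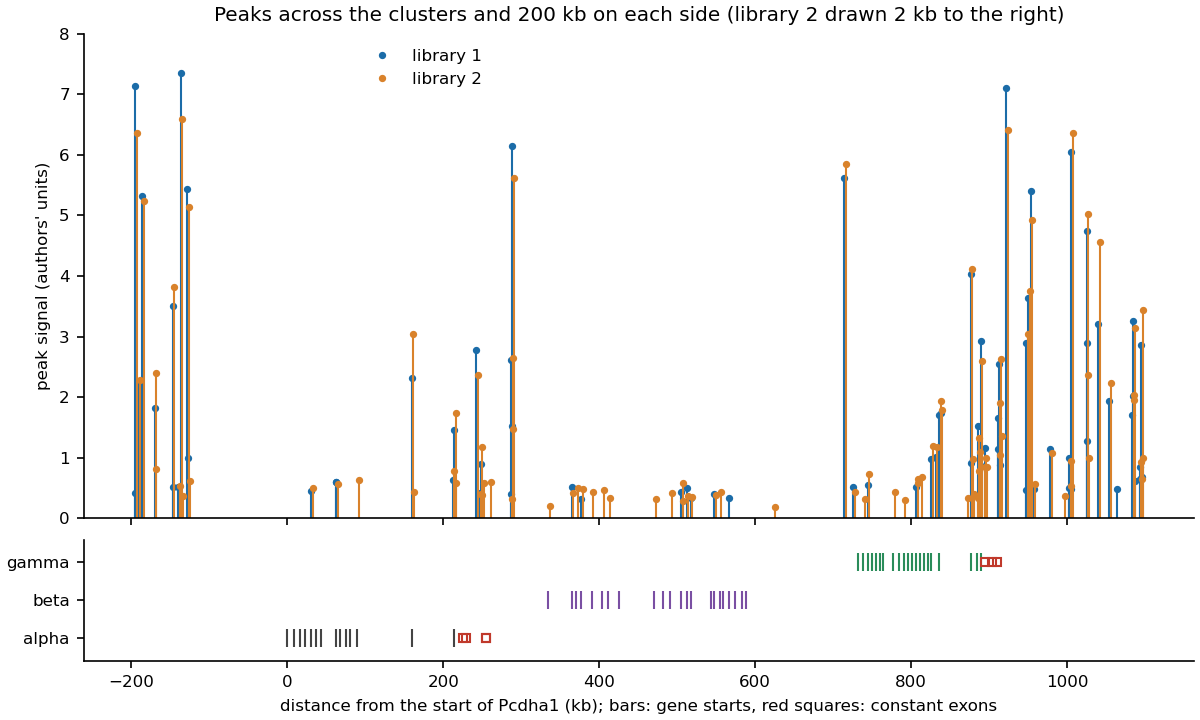
Signal of each merged peak region in the authors' units (y axis, upper panel) against its distance from the start of Pcdha1 in kb (x axis), for both libraries, with member starts as bars and constant exons as red squares in the lower panel. Tall regions stand after the alpha cluster (6.15 and 5.61), at Taf7 before the gamma cluster (5.61 and 5.85) and after the gamma cluster (7.11 and 6.41), while the alpha and beta alternate genes carry low ones.

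Peaks of the locus recurred between libraries at different rates. Over the span with flanks, 67 of 76 peaks of library 1 (88.2%) overlapped one of library 2, against 77.8% of all peaks. In the other direction it was 66 of 99 (66.7%), against 73.2%. Inside the clusters themselves there were 37 peaks in library 1 and 62 in library 2, or 4.06 and 6.8 per 100 kb.

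Footprints, short stretches protected from DNase I inside open chromatin, followed the peaks. A footprint lay in the promoter window in both libraries for 15 members (26.3%), where 55.5% of all genes had one. The 5 C-type genes all had footprints in both libraries, 19 in all in library 1 and 30 in library 2. Of the members' 36 footprints in library 1, 25 (69.4%) overlapped one of library 2, against 68.5% of footprints in all protein-coding promoter windows. Of 77 in library 2, 26 (33.8%) overlapped one of library 1, against 58%. The Pcdhb genes had 11 in library 1 and 27 in library 2, of which 9 and 24 lay between 150 bases before and 50 after the start. A CTCF core match overlapped 1 footprint in each library over all member windows, in a C-type gene both times. The window cuts through the exon peak of Pcdha8, chr18:36992861-36992975, and in that whole peak too a core match overlapped a footprint of both libraries.

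The per-base table, read as bases with a false discovery rate under 0.05, gave a like count. Such bases lay in the windows of 19 members in both libraries (33.3%), where 59.1% of all genes had them. The 2 of these without a peak in both libraries were Pcdhb3, with 36 bases in library 1 and 172 in library 2, and Pcdhgb7, with 49 and 11. Pcdhac1 had 938 and 895 of the 1001 bases of its window under the limit, Pcdhac2 632 and 638, Pcdhgc5 734 and 696, Pcdhgc3 466 and 1001 and Pcdhgc4 230 and 329. Pcdhgc3 thus differed most between the libraries in open bases, although its peak signals differed by less than 0.1. At a limit of 0.01 the count was 10 members (17.5%, against 57.2%), and at 0.001 it was 7 (12.3%, against 54.9%). These 7 were the 5 C-type genes, Pcdhga11 and Pcdhga12, and the same 7 members had a promoter peak in both libraries on the shorter list.

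Promoter windows of the members held features of sequence that the rule did not use. The median observed over expected CpG ratio was 0.564 over the members and 0.552 over all protein-coding genes. By class it was 0.684 for alternate Pcdha, 0.378 for Pcdhb, 0.593 for alternate Pcdhg and 0.67 for C-type genes. Among other protein-coding genes whose ratio lay in the middle 50% of the members' range (0.407 to 0.681), 3907 of 4977 (78.5%) had a promoter peak in both libraries. Of the 29 members in that range 7 had one (24.1%). Pcdhgc5, open in both libraries with 2.93 and 2.6, had a ratio of 0.233, the lowest of the C-type genes. Over the 52 alternate members the mean signal and the CpG ratio had a Spearman's rho of -0.18, as a description.

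A CTCF core consensus of fixed and free letters, searched on both strands, was matched in 22 member windows (38.6%), where 25% of all promoter windows of this length held it. Of the alternate Pcdha windows 10 of 12 held it, of the alternate Pcdhg windows 7 of 18, all in Pcdhga genes, of the C-type windows 3 of 5 and of the Pcdhb windows 2 of 22. A stricter form with 1 more fixed letter, every match of which is also one of the first, was found in 14 member windows (24.6%, against 10.1%), 10 of them of alternate Pcdha. All 10 alternate Pcdha windows had a match after the start, which is in the exon, and 1 had one before it as well. Of members with a promoter peak in both libraries 8 of 17 held a core match, of those with a peak in 1 library 3 of 14, and of those with none 11 of 26. Taking each peak that touched a member window to its own ends, a whole match lay in 3 of 20 peaks of library 1 (15%) and 6 of 35 of library 2 (17.1%), where 12.7% and 13.1% of all peaks held one. The exon peaks of Pcdha5, Pcdha8 and Pcdha12 all held a match, which was 3 of 3 alternate Pcdha peaks in library 2 and 2 of 3 in library 1. The exception was the Pcdha8 peak before the start. The others were in Pcdhac1 in both libraries and in Pcdhga6 and Pcdhgc3 in library 2, and no Pcdhb peak held one. A match shows only that these letters stand there, and a window without one may still hold a CTCF site of other letters.

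The letters CGCT, part of the conserved promoter element of these genes, were found on either strand in all 57 windows (against 85.9% of all windows), and in the 300 bases before the start in 55 (96.5%, against 63.4%). The letters TATAAA were found in 30 windows (52.6%, against 32.3%), among them 14 of 22 Pcdhb windows. Both motifs are short and are often found by their letters alone.

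Variable exons resemble each other, so reads can fit more than 1 place. In the window of each member the share of 32-base words that occur once in the assembly was counted. The median was 77.9% in the alternate Pcdha genes (71.3% to 90.6%), 100% in Pcdhb (84.2% to 100%), 97.5% in alternate Pcdhg (71% to 100%), 80.8% in the Pcdhgb genes among them and 100% in every C-type gene. By call it was 100% in members with a promoter peak in both libraries, 95.4% in those with a peak in 1 library and 94.8% in those with none. Of the members with no peak Pcdhb15, Pcdhb18, Pcdhb21, Pcdhb22, Pcdhgb1 and Pcdhgb2 had 100% unique words, and Pcdha8, the alternate Pcdha gene with the highest mean signal, was also the one with the highest share. Over the 52 alternate members the mean signal and the unique share had a Spearman's rho of 0.20, as a description. The sources used here do not give the read length or the treatment of reads with several matches, and the part of either in the low counts of the alternate Pcdha and Pcdhgb genes was not tested.

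**Figure D5:**
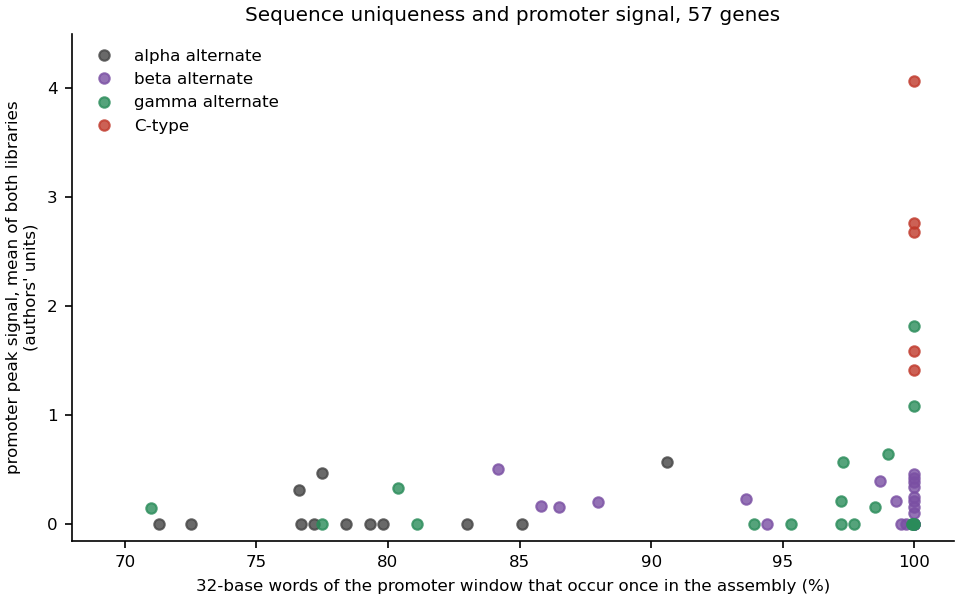
Mean promoter peak signal of both libraries in the authors' units (y axis) against the percent of 32-base words in the promoter window that occur once in the assembly (x axis), with 1 point per member coloured by class. The alternate Pcdha genes lie between 71.3% and 90.6% with means of 0.577 or less, and genes at 100% run from a mean of 0 to 4.07.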

How the data were processed

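Left cerebral cortex was profiled by DNase-seq in 2 libraries. The peak signal (column 7 of the narrowPeak lists) was deposited by the authors per library without a stated normalization. The authors deposited false discovery rates (q-values, FDR), 0.01 in every line of the footprint lists and under 0.05 in the per-base tables, made from the alignments of each library per the readme files. All use the mm10 build per the file headers and readme files. Not given in the sources used here were aligner, caller, read depth and the treatment of strain differences.

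Promoter windows were 500 bases on each side of the 5′ end of the GENCODE M21 gene record, with an overlap of at least 1 base. Peaks of the longer list were used, 132054 and 139799, and merged across libraries into regions. Windows of 250 and 2000 bases, the shorter list (79331 and 84096 peaks), any annotated start, peak midpoints, an overlap of 50%, stricter limits, a stricter motif, the span without flanks and each library alone were alternatives. Values in both libraries are given for the C-type genes, Pcdhb1, the 3 highest and 3 lowest members with a signal in each cluster and members with a peak in 1 library. Regions named are the 10 strongest outside member windows, those beside the clusters and some farther downstream. Other genes were named after their values were seen. Members and lists were chosen with earlier results of these data known. Finding peaks by overlap was tested on simulated data. Of the comparison lists 2 entries are not reported here, and the lists' counts leave them out. No sequence of the locus is printed. Python 3.11.15, numpy 2.4.6, pandas 2.3.3, matplotlib 3.10.9 and samtools 1.23.1 were used.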

Additional observations from a re-analysis of the deposited data

How the results depend on the processing

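Of 51 alternatives, 35 stayed within 1.5 times the reported count or within the SD of the reported median, and 16 moved further. For the median this SD was so wide that every alternative fell within it, also a fall to 0, so those among the 35 say little about stability. With the shorter peak list the count of members with a promoter peak in both libraries went from 17 to 7, that of Pcdha from 4 to 2 and that of Pcdhb from 6 to 0, and the shared peaks of the span from 67 to 41. The share over all genes was then 53.8%. Windows of 250 bases and peak midpoints both left 2 Pcdha members. Limits of 0.01 and 0.001 on the false discovery rate left 10 and 7 of 19 members. The span without flanks held 34 shared peaks. The stricter CTCF core left 14 and the window of 250 bases 12 of 22 members. With 1 library left out, the counts in the other ranged from 18 to 30 members, from 4 to 5 in Pcdha, from 7 to 14 in Pcdhb and from 7 to 11 in Pcdhg, with the higher value each time in library 2. Members with a footprint ranged from 17 to 25, those with bases under the limit from 21 to 32, peaks in the span from 76 to 99, and the median signal from 0 to 0.302 around 0.157. No paired analysis was possible because there is only 1 group. Read depth is unknown, so that no interval can be given for a signal, and a promoter without a peak was not detectable as open by the authors' threshold rather than shown to be closed.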
